A study of Mus musculus with 24 samples.

Results

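Schwann cells are the glia of peripheral nerves, and 7 genes that mark them were followed in the inguinal white adipose tissue of 24 young mice. The genes are Sox10, Cdh19, Mbp, Pmp22, Prx, Ngfr and S100b, taken by name from the 16118 genes of the deposited table, and all 7 passed the filter on low values that left 16005 genes. The inguinal depot is a subcutaneous fat pad that in mice also holds a lymph node, vessels, nerve branches and, in females, the growing mammary ducts. The study asks how this depot differs when young mice stay with their mother beyond the usual day of separation. Each of its 6 groups holds 4 animals. They are p21 males and p21 females, collected on postnatal day 21, males and females taken at day 28 after separation from the mother at day 21 (standard weaning, SW), and males and females taken at day 28 that were kept with the mother (delayed weaning, DW). Strain, genotype and litter are not given in the sources used here, and the labels name no other treatment. Animal numbers name the mice below.

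Schwann cells follow axons. SOX10 holds them in their lineage and works with EGR2 to switch on the myelin genes. A myelinating Schwann cell wraps 1 axon in compacted membrane whose inner faces are joined by myelin basic protein (Mbp), while Remak Schwann cells surround several thin axons, among them the sympathetic fibres that drive fat breakdown and heat production in adipose tissue, without making myelin.

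Values are normalised read numbers, that is, reads of a gene divided by a factor of its library, and means are given ± SD with n = 4 animals. Recovered reads in the listed genes ran from 57600711 to 302145813 per library, and the 7 genes together took 302.1 to 624.2 RPM of them. Sox10 rested on 58 to 1217 reads per library, Cdh19 on 99 to 1050 and Pmp22 on 16738 to 61588, so that counting error weighs most on Sox10 and Cdh19. Its size was not compared with the spread between animals. p21 male 53 had the fewest reads and 14054 genes detected, the lowest count of any library. A whole fat pad was sequenced, so fewer Schwann cells and less RNA per Schwann cell cannot be told apart.

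The label of the gene set was checked against further genes of the same cells, which were named after their values were seen. Per kilobase of exon, over all 24 animals, the mean normalised level of Mal, a raft protein of myelin, was 8.65, with no animal under 4.43. Egr2 had 2.97, with no animal under 1.42, and Drp2, the partner of periaxin in the outer membrane complex, had 2.01 on that scale, with no animal under 0.921. Pou3f1 and Sox2, factors of immature Schwann cells, had 0.0604 and 0.0370, and Gfap had 0.0207. Other genes went the other way. Art3 and Gap43, counted below among genes of non-myelinating and immature Schwann cells, had 29.6 and 3.72. Mag and Pmp2, counted below among myelin genes, had 0.589 and 0.187. Mal, Egr2 and Drp2, genes that myelinating Schwann cells express, were thus present in every library. These levels do not tell myelinating from other Schwann cells, nor Schwann cells from other cells of the depot. Some members are also made elsewhere: as background, SOX10 is found in melanocytes and mammary epithelium, S100B in fat cells and PMP22 in fibroblasts.

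Per kilobase of exon, the mean normalised level of the members was highest for Pmp22, which codes for a 4-pass membrane protein of compact myelin, at 117.7. Mbp followed at 11.0 and S100b, which codes for a calcium-binding protein, at 8.12. Prx, which codes for periaxin, a scaffold that ties the Schwann cell membrane to the basal lamina, had 3.91. Ngfr, which codes for the p75 neurotrophin receptor, had 2.90. Sox10 and Cdh19, which codes for a cadherin of the Schwann cell lineage, were lowest at 1.42 and 1.10. The ranges over animals of Sox10 (0.293 to 3.88) and Cdh19 (0.356 to 1.85) overlapped, as did those of Mbp (7.40 to 17.1) and S100b (3.94 to 17.1), whereas the lowest Pmp22 level (87.5) lay above the highest level of every other member.

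S100b, Prx and Pmp22 are the members that passed the test between day 21 and day 28 in more than one comparison, and the sequence before their starts is shown to let a reader see what these genes do and do not share there. The RefSeq table (GRCm38.p6) held starts for 4 of the 7 members. Each line gives the 250 bases before a start, in the direction of the gene, with matches to the CCAAT box (CCAAT on either strand, so also ATTGG) in capitals. The S100b window lies at chr10:76253586-76253835, the Prx window at chr7:27499074-27499323, and the Pmp22 windows at chr11:63128732-63128981 and chr11:63131207-63131456, all on the + strand.
S100b: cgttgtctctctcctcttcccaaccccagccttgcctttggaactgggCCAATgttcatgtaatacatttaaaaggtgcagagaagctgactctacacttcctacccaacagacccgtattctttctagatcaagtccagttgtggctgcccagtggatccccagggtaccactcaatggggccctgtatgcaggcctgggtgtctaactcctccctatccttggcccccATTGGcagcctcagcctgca
Prx: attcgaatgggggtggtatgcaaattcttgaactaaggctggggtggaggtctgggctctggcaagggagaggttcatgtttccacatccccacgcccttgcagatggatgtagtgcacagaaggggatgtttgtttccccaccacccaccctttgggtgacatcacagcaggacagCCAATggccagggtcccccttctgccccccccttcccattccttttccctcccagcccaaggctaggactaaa
Pmp22, first start: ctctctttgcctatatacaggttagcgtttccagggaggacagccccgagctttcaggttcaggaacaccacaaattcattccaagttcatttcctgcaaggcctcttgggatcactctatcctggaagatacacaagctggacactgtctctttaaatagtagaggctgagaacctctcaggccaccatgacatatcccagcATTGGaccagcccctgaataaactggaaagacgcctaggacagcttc
Pmp22, second start: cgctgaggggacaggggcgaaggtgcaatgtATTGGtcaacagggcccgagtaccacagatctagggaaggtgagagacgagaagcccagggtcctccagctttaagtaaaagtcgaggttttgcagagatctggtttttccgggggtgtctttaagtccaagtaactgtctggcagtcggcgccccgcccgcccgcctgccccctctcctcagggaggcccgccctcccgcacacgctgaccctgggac
CCAAT lay on the gene strand in Prx, its first base 73 bases before the start, and in S100b, 202 bases before it, and S100b had a second match on the other strand 20 bases before the start. Each of these Pmp22 windows had 1 match on the other strand. The other 2 Pmp22 windows and the Ngfr window had none, and 33.8% of 32851 RefSeq windows of the same length have a match. The core SOX sequence ACAAAG and the EGR sequence GCGNGGGCG, searched on both strands, had no match in any of the 7 windows, against 16.5% and 4.70% of all windows. No matches overlapped. The CCAAT box was chosen for display after the other motifs gave no match. A missing match says only that these letters are not in these windows.

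**Figure D1:**
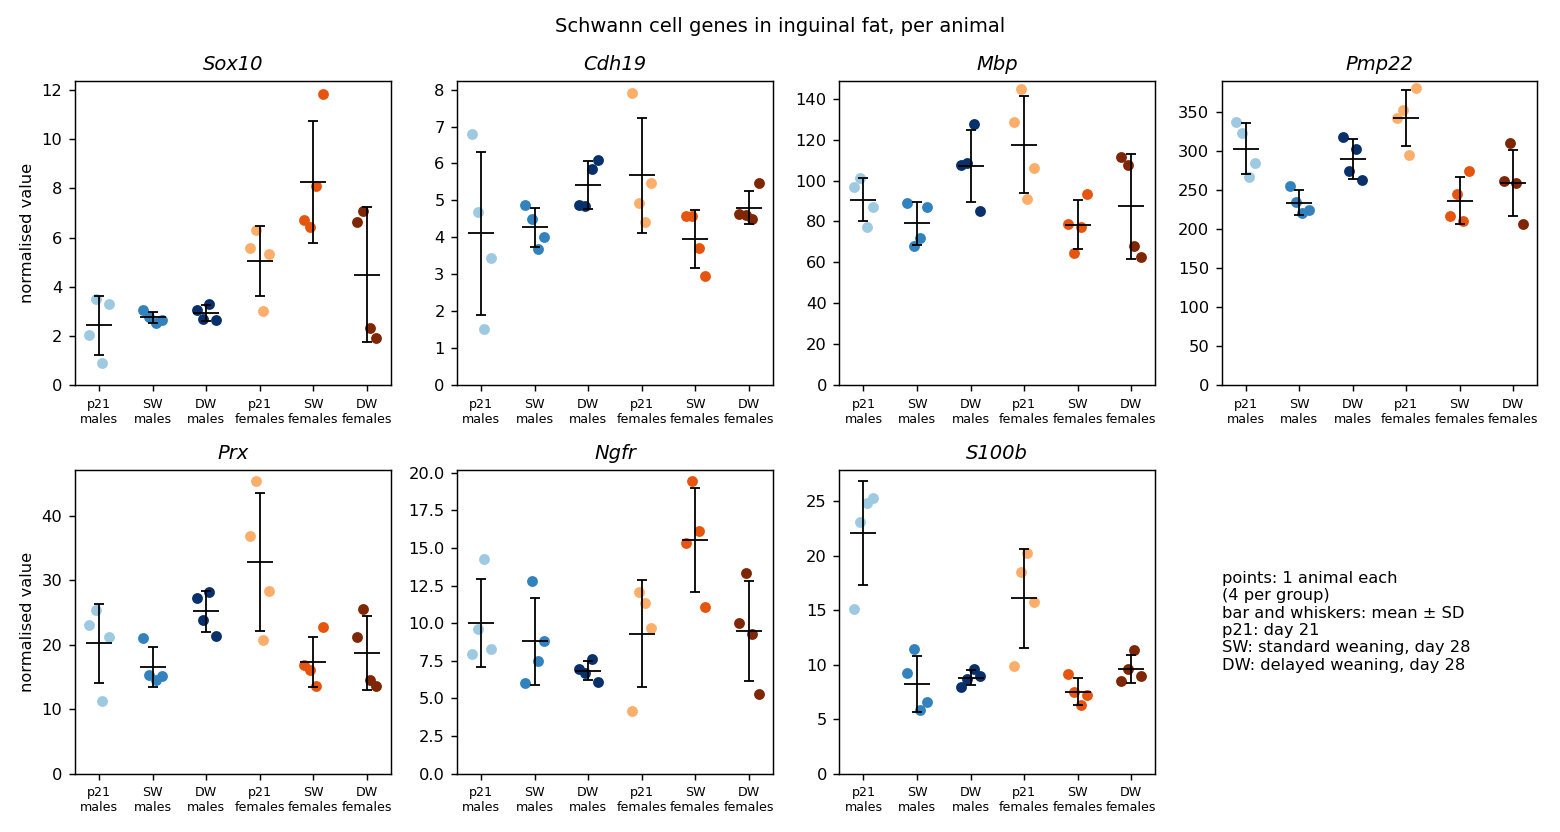
Normalised value of each member (vertical axes, starting at 0) in each of the 6 groups; points are single animals, 4 per group, and bars with whiskers are mean ± SD. S100b is high at day 21 in both sexes, Sox10 is highest in SW females, and DW females 82 and 83 lie apart from DW females 76 and 77 for Sox10, Mbp and Prx.

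S100b had the largest change of any member between day 21 and day 28. In males its values were 15.1, 23.0, 24.8 and 25.3 at p21, 9.20, 11.4, 5.84 and 6.55 after SW and 7.94, 8.66, 9.62 and 8.98 after DW. In females they were 9.89, 18.5, 20.2 and 15.8 at p21, 9.16, 7.49, 6.26 and 7.20 after SW and 8.48, 9.58, 11.4 and 9.00 after DW. The group means ran from 7.53 ± 1.21 in SW females through 8.26 ± 2.57 in SW males, 8.80 ± 0.696 in DW males, 9.61 ± 1.27 in DW females and 16.1 ± 4.52 in p21 females to 22.1 ± 4.76 in p21 males, and all neighbours in this order overlapped. Every day 28 male lay below every p21 male, a separation that 7.69% of genes had after SW and 10.7% after DW, and every SW female lay below every p21 female, as for 10.1% of genes. DW females overlapped the p21 females only through p21 female 30 (9.89).

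The SW male mean was 37.4% of the p21 mean, and the fall in mean log2(value + 1) was 1.33 (SE 0.204, limma adjusted p = 0.000277). In females under SW the mean was 46.8% of the p21 mean, and the fall was 0.97 (SE 0.204, limma adjusted p = 0.00262). Under DW S100b fell by 1.21 in males (limma adjusted p = 0.000733), and the female fall was 0.65 (limma adjusted p = 0.0396). The SW and DW comparisons share the p21 animals and are not independent. At day 28 S100b did not pass the test between DW and SW (0.12, 95% interval -0.30 to 0.54, in males and 0.32, -0.10 to 0.74, in females). The male falls passed in every setting tried, while the call in DW females ended when any 1 of p21 females 36, 55 and 56 or DW females 76, 77 and 83 was left out (limma adjusted p 0.0523 to 0.126). With the mammary, lymph node and skeletal muscle scores as covariates the fall in SW females was 1.00 with a limma adjusted p of 0.0911.

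Ucp1, the uncoupling protein of thermogenic fat cells, was the gene most like S100b. After subtraction of group means, the Pearson r over 24 animals was 0.83 (Spearman 0.76, and 0.72 without the 2 animals farthest from the median), the highest of 11601 genes searched. Acot11, a thioesterase of thermogenic fat, and Letmd1 followed with 0.82 each. The points share library depth and tissue makeup, and the values are a description. Ucp1 was 202.6, 455.1, 690.1 and 435.2 in p21 males, 153.2 to 438.1 in SW males and 73.2 to 137.9 in DW males. Among p21 females it was 33.7 in animal 30, which also had the lowest S100b of that group, against 218.3, 453.8 and 270.6 in the others. Of the 4 comparisons of day 28 with day 21, Ucp1 passed the test in DW males alone (-2.02, limma adjusted p = 0.0205), and its part in the S100b result was not tested. Cidea, a lipid droplet protein of the same cells, had an r of 0.18 with S100b. S100b was not like the myelin members: r was -0.25 with Mbp, -0.17 with Prx and -0.12 with Pmp22.

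Pmp22, Prx and Mbp, the 3 members with roles in the myelin sheath, fell between day 21 and day 28 in SW females. With S100b they make 4 of 7 members lower and 0 higher by limma in that comparison, in which 4.23% of 16005 genes were called lower and 11.6% were called in either direction. Pmp22 was 341.6, 351.7, 294.0 and 380.6 in p21 females and 216.1, 244.3, 210.0 and 274.6 in SW females, with no overlap. Its SW mean was 69.1% of the p21 mean, a fall of 0.53 (SE 0.119, limma adjusted p = 0.00427) that passed in every setting tried.

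Prx was 36.9, 45.4, 20.7 and 28.3 in p21 females and 16.9, 16.1, 13.7 and 22.8 in SW females. The groups overlapped through p21 female 55 and SW female 81. Prx fell by 0.85 (SE 0.244, limma adjusted p = 0.0244), and Mbp fell by 0.57 (SE 0.181, limma adjusted p = 0.0442). Mbp was 128.7, 144.6, 90.9 and 105.9 in p21 females and 78.8, 64.5, 77.4 and 93.2 in SW females, with overlap between p21 female 55 and SW female 81 again. The Prx call ended when any 1 of p21 females 30 and 36 or SW females 73, 74 and 75 was left out (limma adjusted p 0.0536 to 0.0972). The Mbp call ended when any 1 of p21 females 30, 36 and 56 or SW females 73, 74 and 75 was left out (0.0593 to 0.143), without p21 male 53, SW male 84 and p21 female 36 together (0.127), and with the run of animal numbers as a random block (0.0504).

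**Figure D2:**
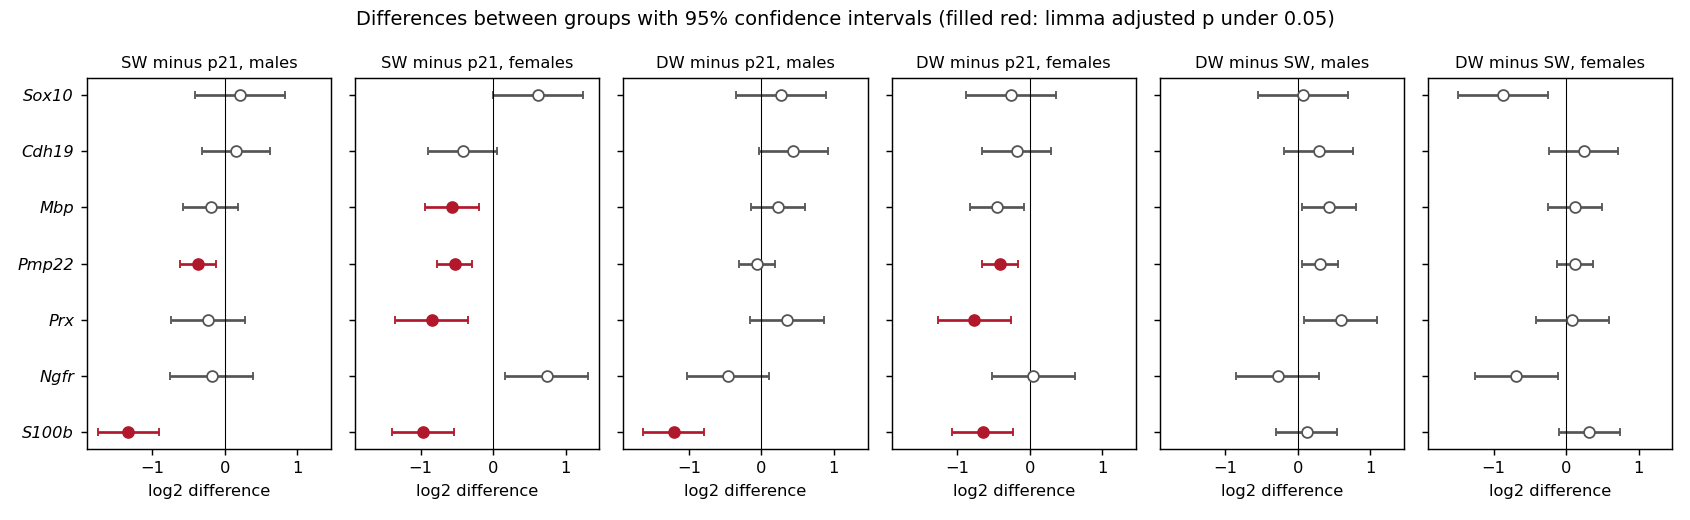
Log2 difference of each member (horizontal axes, normalised value + 1) in 6 comparisons, named above each panel, with 95% confidence intervals; filled red points passed limma's test. S100b and Pmp22 are below 0 in all 4 day 28 against day 21 panels, S100b passing in all of them and Pmp22 in all but DW males, and no member passed between DW and SW.

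Other genes of the myelin sheath moved with them in SW females. Of 13 genes of compact myelin and myelin lipid synthesis, 6 were called lower and 0 higher between p21 and SW females, where 4.23% of all genes were lower and 7.39% higher. The median difference was -0.78 on the log2 scale against 0.01 over all genes tested. Cldn19, a claudin of myelin seams, fell by 1.14 (14.5 to 5.83 in the mean), Fa2h, which hydroxylates myelin sphingolipids, by 1.07 (9.76 to 4.02), Ncmap, a myelin membrane protein, by 1.05 (8.48 to 3.47) and Mal by 0.95 (35.8 to 17.9). Limma adjusted p-values for these were 0.0489, 0.0229, 0.00485 and 0.0216. The compact myelin count was also 6 by edgeR, without p21 male 53, SW male 84 and p21 female 36, and with the tissue scores as covariates.

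Of 16 genes of non-compact myelin, nodes and paranodes, 6 were called lower and 1 higher in the same comparison, where 4.23% of all genes were lower and 7.39% higher, with a median of -0.24. Nfasc, whose products anchor nodes and paranodes, fell by 1.03 (limma adjusted p = 0.00156). Drp2 fell by 1.02 (limma adjusted p = 0.0261), and gliomedin (Gldn), which clusters nodal channels, by 0.71 (limma adjusted p = 0.0137). Nectin1, a cell adhesion protein that epithelia make as well, rose by 0.78 (limma adjusted p = 0.0313), a call that ended without p21 male 53, SW male 84 and p21 female 36 and with the tissue scores as covariates. Among 15 genes of non-myelinating and immature Schwann cells, 2 were lower and 0 higher, against the same shares of all genes: Gap43, a growth cone protein, fell by 1.05 and the GDNF receptor subunit Gfra1 by 0.62 (limma adjusted p 0.0148 and 0.00568). Of 9 axon and sympathetic neuron transcripts tested, none was called by limma, with a median of -0.08, and their summed value was 11.1 to 13.6 in p21 females and 9.08 to 11.6 in SW females.

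The other tissues of the depot moved in the same comparison. Of 11 mammary epithelial markers 8 were called higher in SW females, where 7.39% of all genes were, and their summed value was 281.2 to 387.3 in SW females against 51.7 to 177.2 in p21 females, with none at 0 reads in any female. The sum of 12 lymph node markers was 705.2 to 1158 against 745.3 to 1144, and that of 10 skeletal muscle markers 395.9 to 3481 against 6.67 to 1698. With scores of these 3 tissues as covariates, Pmp22, Prx and Mbp kept their calls in SW females (falls of 0.73 to 1.58, against 0.53 to 0.85 without them). That fit called 432 genes in all in this comparison, in place of 1860. The mammary sums did not overlap between p21 and SW females, so the fit cannot separate tissue makeup from age.

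**Figure D3:**
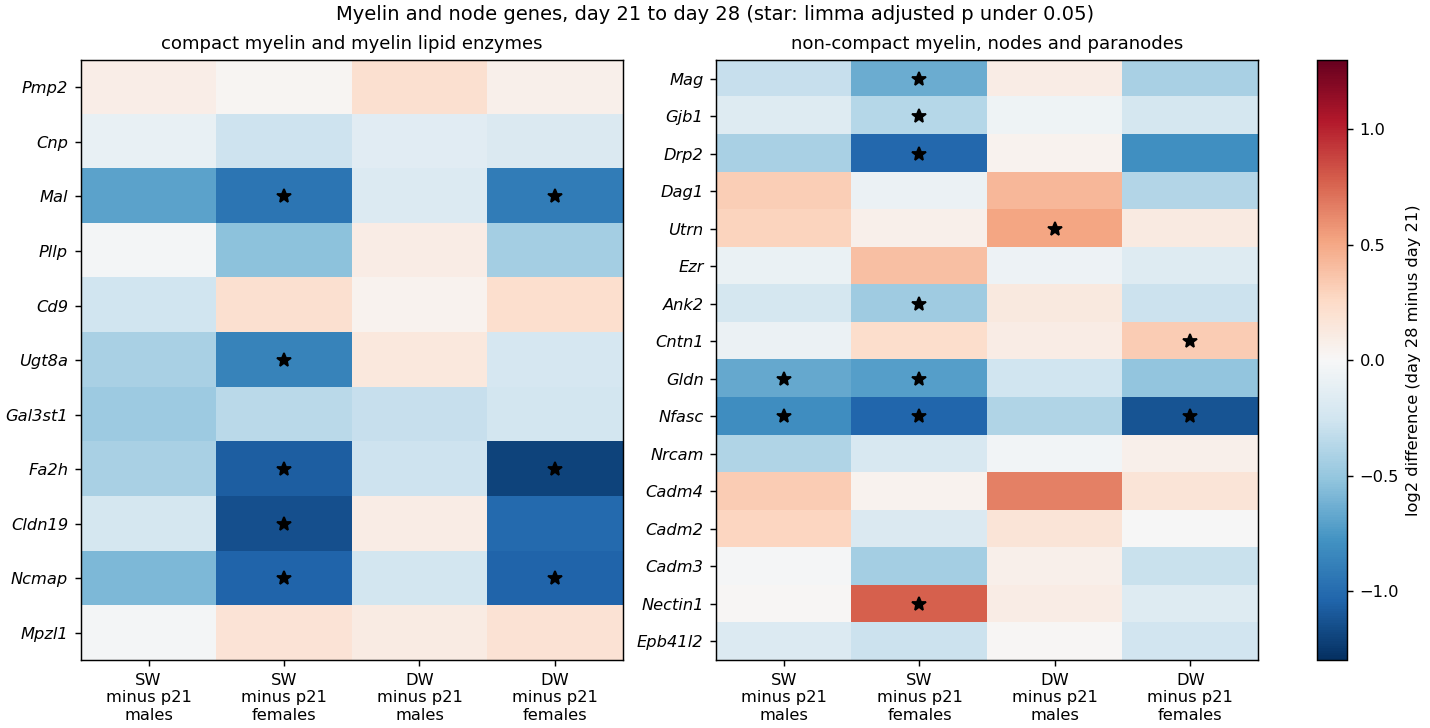
Log2 difference from day 21 to day 28 (colour, blue lower at day 28, red higher) of 11 of the 13 compact myelin genes (left) and 16 genes of non-compact myelin and nodes (right), in SW and DW mice of each sex; stars mark limma adjusted p under 0.05. SW females hold 5 lower calls among the compact myelin genes shown and 6 among the node genes, and Nfasc has a star in both female comparisons and in SW males.

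In males Pmp22 was the member of the myelin sheath that passed, and only under SW. It was 337.4, 322.1, 266.5 and 284.3 in p21 males, 255.4, 234.3, 220.4 and 224.3 after SW and 317.6, 274.5, 302.4 and 262.9 after DW. SW males lay below all p21 males, and DW males overlapped them. Under SW Pmp22 fell by 0.37 (SE 0.119, limma adjusted p = 0.0471), a call that ended when any 1 of p21 males 37, 38 and 54 or SW males 84, 85 and 124 was left out (0.0561 to 0.119), and with the compared groups alone, the tissue scores, the run of animal numbers as a random block, or without p21 male 53, SW male 84 and p21 female 36 (0.0667 to 0.115). With S100b this made 2 of 7 members lower, where 4.97% of all genes were lower and 11.9% were called. Under DW S100b alone was lower, 1 of 7, where 6.10% were lower and 15.0% were called, and Pmp22 changed by -0.06 (95% interval -0.31 to 0.19).

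Of the node genes Nfasc and Gldn were lower in SW males (falls of 0.81 and 0.67). The median of the compact myelin list was -0.35 in SW males and 0.02 in DW males. The summed skeletal muscle markers were 5.46 to 597.7 in p21 males, 481.2 to 7033 in SW males and 351.7 to 7544 in DW males, and their part in these values was not tested.

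Other gene groups held calls of higher levels in DW males, where 8.86% of all genes were called higher than at p21. Of 15 genes of axon-to-Schwann signals and receptors, 4 were higher than at p21 and 0 lower, with a median of 0.38 against 0.02 over all genes. Lamb1, a laminin chain of the basal lamina, rose by 0.62, Adam22, a receptor on axons for LGI4, by 0.58, the laminin receptor subunit Itga6 by 0.56 and Dhh, the hedgehog ligand of Schwann cells, by 0.51 (limma adjusted p 0.00580, 0.0173, 0.00853 and 0.0426). Of 15 genes of non-myelinating and immature Schwann cells 2 were higher, the potassium channel gene Kcna1 by 0.94 and Art3 by 0.86 (limma adjusted p 0.0188 and 0.000419). Several of these genes are also expressed by vessels and muscle. The summed value of 8 endothelial markers was 1187 to 1384 in p21 males and 1840 to 1998 in DW males, and its part in these rises was not tested.

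Over all 6 groups, Pmp22 means ran from 233.6 ± 15.7 in SW males through 236.2 ± 29.6 in SW females, 258.8 ± 42.2 in DW females, 289.4 ± 25.1 in DW males and 302.6 ± 32.8 in p21 males to 342.0 ± 36.0 in p21 females. Prx means ran from 16.5 ± 3.08 in SW males through 17.4 ± 3.86 in SW females, 18.7 ± 5.69 in DW females, 20.2 ± 6.18 in p21 males and 25.2 ± 3.12 in DW males to 32.8 ± 10.7 in p21 females. Mbp means ran from 78.5 ± 11.8 in SW females through 79.0 ± 10.6 in SW males, 87.4 ± 25.6 in DW females, 90.7 ± 10.6 in p21 males and 107.2 ± 17.5 in DW males to 117.5 ± 23.8 in p21 females. For each of the 3 genes both SW groups stood lowest and p21 females highest, and all neighbours in each order overlapped.

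The difference in response between the sexes was tested by a sex by age interaction under SW, in which limma called none of the 7 members (1 at an unadjusted p under 0.05, Ngfr, and 0 by edgeR or DESeq2) and 1.03% of all genes. The interaction was -0.61 for Prx (limma adjusted p = 0.727) and -0.37 for Mbp (0.841), so a larger fall in females was not shown.

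After delayed weaning Prx, Pmp22 and S100b were lower than at p21 in females, 3 of 7 members, where 6.16% of genes were called lower and 12.1% in all. Pmp22 was 260.7, 309.4, 259.2 and 206.0 in DW females and Prx was 21.1, 25.6, 14.5 and 13.7. Both overlapped the p21 females. Pmp22 fell by 0.41 and Prx by 0.77 (limma adjusted p 0.0275 and 0.0430), and Mbp, at 111.3, 107.5, 68.01 and 62.7, differed by -0.45 without passing (0.107). The Mbp difference passed without DW female 76 (-0.58, limma adjusted p = 0.0312), without DW female 77 (-0.56, 0.0462) and with the tissue scores as covariates (-0.62, 0.0253). Without DW females 82 and 83, which were the lowest of the group for Sox10, Mbp and Prx, 0 of the 3 calls remained: the differences were -0.26 for Pmp22, -0.42 for Prx and -0.73 for S100b. The number of compact myelin genes called lower then went from 4 to 1 of 13. Of single libraries, p21 females 30, 36 and 56 and DW females 82 and 83 each ended the Prx and Pmp22 calls (limma adjusted p 0.0545 to 0.151). Chi-square per degree of freedom over all genes was 591.4 to 784.5 between either of animals 76 and 77 and either of 82 and 83, against 125.4 and 122.2 within these pairs.

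Delayed and standard weaning were compared directly at day 28. In males 0 of 7 members were called by limma, edgeR or DESeq2, 3 had an unadjusted p under 0.05, and limma called 0.256% of all genes. Prx was 27.2, 23.9, 28.2 and 21.4 in DW males and 21.1, 15.3, 14.5 and 15.1 in SW males. Mbp was 107.4, 108.8, 127.7 and 85.0 in DW males and 89.1, 67.9, 72.1 and 87.1 in SW males. Prx and Pmp22 did not overlap between these groups, each higher after DW, as did 5.34% of all genes, and Mbp overlapped through DW male 87.

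The differences were 0.59 for Prx (95% interval 0.08 to 1.09), 0.43 for Mbp (0.06 to 0.80) and 0.31 for Pmp22 (0.06 to 0.55), with limma adjusted p from 0.550 to 0.624. They were above 0 within both runs of animal numbers at day 28: 0.26 and 0.68 for Prx, 0.28 and 0.57 for Mbp, and 0.21 and 0.31 for Pmp22 among animals 73 to 80, of which 1 is an SW male, and 81 to 87. SW male 124 is in neither run and did not enter these values. Because Prx and Pmp22 did not overlap between DW and SW males, any split of these animals gives them a difference above 0. For these genes the runs therefore add nothing to the comparison. The labels do not say what the runs stand for. All 15 genes of non-myelinating Schwann cells and all 15 of axon-to-Schwann signals and receptors had differences above 0 in DW males. Their medians were 0.26 and 0.24, with 0 called by limma or edgeR. Over all genes the median was 0.00 and 51.1% of differences were above 0. Lists of other cells had differences above 0 as well, 7 of 8 mural cell genes (median 0.14) and 8 of 10 fibroblast genes (0.12), and their part in these values was not tested.

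In females the weaning comparison also gave 0 of 7 members by limma, edgeR or DESeq2, 2 at an unadjusted p under 0.05, where limma called 1.27% of all genes. Sox10 differed by -0.87 (95% interval -1.49 to -0.25, limma adjusted p = 0.160) and Ngfr by -0.69 (-1.26 to -0.12, 0.212). The Sox10 difference was -0.03 among animals 73 to 80 and -2.05 among animals 81 to 87, which hold DW females 82 and 83 and a single SW female. Without DW female 76 it was -1.08 and without DW female 77 -1.11, and it then passed (limma adjusted p 0.0307 and 0.0410). Prx, Mbp and Pmp22 were higher in DW in the first run (0.56, 0.57 and 0.35) and lower in the second (-0.66, -0.51 and -0.25). A sex by weaning interaction was called for none of the 7 members by limma (1 at an unadjusted p under 0.05, and 0 by edgeR or DESeq2), and for 0.0187% of genes. For Sox10 it was -0.94 (limma adjusted p = 0.802).

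Sox10 was the member that differed between the sexes. In males it was 2.05, 3.49, 0.894 and 3.30 at p21, 3.04, 2.79, 2.54 and 2.65 after SW and 3.06, 2.70, 3.31 and 2.64 after DW. In females it was 5.57, 6.33, 3.00 and 5.32 at p21, 6.72, 6.43, 8.10 and 11.8 after SW and 6.65, 7.10, 2.32 and 1.91 after DW. The group means ran from 2.43 ± 1.21 in p21 males through 2.75 ± 0.217 in SW males, 2.93 ± 0.316 in DW males, 4.49 ± 2.76 in DW females and 5.05 ± 1.44 in p21 females to 8.27 ± 2.48 in SW females. Of neighbours in this order, only p21 and SW females did not overlap.

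At day 28 under SW every female lay above every male, as for 6.27% of genes. The mean was 3.00 times that of males, and the difference in mean log2(value + 1) was 1.27 (SE 0.300, limma adjusted p = 0.0117). Sox10 was 1 of 7 members called, where 3.36% of genes were higher in females and 3.54% were called. The rise from p21 to SW females, 0.62, did not pass (limma adjusted p = 0.213), although the groups did not overlap, as with 11.4% of genes in that direction. At p21 females differed from males by 0.86 (limma adjusted p = 0.410), with 0 of 7 members called by limma, edgeR or DESeq2, 4 at an unadjusted p under 0.05, and 0.356% of genes called. Under DW the difference was 0.34 (limma adjusted p = 0.556), with 0 of 7 members called by any of the 3 tools, 0 at an unadjusted p under 0.05, and 2.46% of genes called by limma.

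The mammary epithelium differed in the same direction. In SW females against SW males 10 of 11 mammary markers were called higher, where 3.36% of all genes were. Their summed value was 281.2 to 387.3 in females against 4.47 to 56.0 in males, where 6 of the 11 had 0 reads in at least 1 animal. Krt18, a keratin of luminal epithelium, was 70.97, 54.2, 60.9 and 68.04 in SW females and 6.87, 0.224, 0.0966 and 0.0476 in SW males. In DW females it was 42.0, 31.5, 16.0 and 16.7, so that animals 82 and 83, which had the lowest Sox10, also had the lowest Krt18. The same animals were the lowest of their group for Mbp and Prx. After subtraction of group means, Pearson r of Sox10 over the 24 animals was 0.53 with Krt18, 0.82 with Mbp, 0.85 with Prx and 0.20 with Cdh19. The part of the mammary epithelium in the Sox10 values was not tested. Erbb3, a neuregulin receptor of Schwann cells and of epithelia, was higher in SW females than in SW males by 1.98 (limma adjusted p = 5.63e-07) and in DW females than in DW males by 1.22 (0.000954). It also rose from p21 to SW females by 0.95 (limma adjusted p = 0.00385).

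With the mammary, lymph node and muscle scores as covariates the Sox10 difference under SW was -0.44 (limma adjusted p = 0.822), in a fit where 10 genes were called in place of 567. The mammary sums did not overlap between SW females and SW males, so this fit cannot separate tissue makeup from sex. The Sox10 call also ended without SW female 81 (1.10, limma adjusted p = 0.0631) and with the run of animal numbers as covariate (1.15, 0.0885). The 6 melanocyte markers found in the file summed to 12.5 to 20.9 in SW males and 12.6 to 17.7 in SW females. Of 14 Schwann lineage regulators tested none was called between SW females and males by limma or edgeR, and Egr2 was 14.8 ± 4.64 in SW females against 7.06 ± 1.41 in SW males.

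Ngfr, the low-affinity receptor that Schwann cells, sympathetic neurons and some stromal cells carry, was highest in SW females. Its values there were 15.4, 19.4, 16.2 and 11.1, against 4.16, 12.1, 11.3 and 9.70 in p21 females and 10.0, 13.4, 9.27 and 5.33 in DW females. In males it was 7.93 to 14.3 at p21, 6.05 to 12.8 after SW and 6.10 to 7.64 after DW. The group means ran from 6.85 ± 0.637 in DW males to 15.5 ± 3.45 in SW females, and all neighbours in the order overlapped. The SW female mean was 1.67 times the p21 female mean, a difference of 0.74 that did not pass (limma adjusted p = 0.0894), and that passed without p21 male 53, SW male 84 and p21 female 36 (0.88, 0.0365). The interaction of sex and age was 0.92 (0.486). Of 13 neurotrophins and receptors tested, 2 were called higher than at p21 in SW males, where 6.9% of all genes were. In DW males 3 were (8.86% of all genes), in SW females 1 (7.39%) and in DW females 0, and none was called lower. Sort1, which pairs with the p75 receptor for pro-neurotrophins and also sorts proteins in fat cells, rose from p21 in males under SW and DW (0.50 and 0.64, limma adjusted p 0.00538 and 0.000782) and Nrg4, a growth factor that fat cells secrete, rose by 0.78 and 0.50 (0.000863 and 0.0171). The third gene in DW males was Ntrk2, a neurotrophin receptor (0.54, limma adjusted p = 0.0269), and the gene in SW females was Ntf5, a neurotrophin at a mean of 0.725 or less. For Nrg4 the sex by age interaction was -0.87 (limma adjusted p = 0.0196).

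Cdh19 passed in no comparison with all animals in the fit. It was 6.79, 4.68, 1.53 and 3.44 in p21 males, 3.68 to 4.88 in SW males and 4.85 to 6.10 in DW males. In females it was 4.40 to 7.91 at p21, 2.94 to 4.59 after SW and 4.49 to 5.48 after DW. The group means lay between 3.95 ± 0.791 in SW females and 5.68 ± 1.55 in p21 females, and all neighbours in their order overlapped. The largest differences were 0.44 from p21 to DW males (95% interval -0.04 to 0.91) and 0.47 between p21 females and males (0.00 to 0.95), each with p21 male 53 as the lowest library. Close to them was -0.42 from p21 to SW females (-0.89 to 0.05, limma adjusted p = 0.273). The SW female mean was 69.6% of the p21 female mean. Without p21 male 37 the difference from p21 to DW males was 0.68 and passed (limma adjusted p = 0.0323).

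The members fell into a group that moved together from animal to animal and 3 that did not. After subtraction of group means, Pearson r over the 24 animals was 0.82 for Sox10 and Mbp, 0.85 for Sox10 and Prx, 0.83 for Mbp and Prx, 0.76 for Prx and Pmp22, 0.67 for Sox10 and Pmp22 and 0.62 for Mbp and Pmp22. Without the 2 animals farthest from the median these values were 0.54 to 0.83. S100b and Ngfr had 0.56 with each other, and their values with the other 4 lay between -0.25 and 0.08. Cdh19 had 0.44 with Prx, 0.24 with Pmp22 and -0.46 with Ngfr. Animals share a library and a tissue makeup across genes, and these values carry no test. Of the lymph node markers, Cr2, a receptor of B cells and follicular dendritic cells, had an r of -0.76 with Prx and -0.66 with Pmp22. Ccl21a, a chemokine of lymph node stroma, had -0.02 with each of them and 0.41 with Mbp. The part of the lymph node in these values was not tested.

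**Figure D4:**
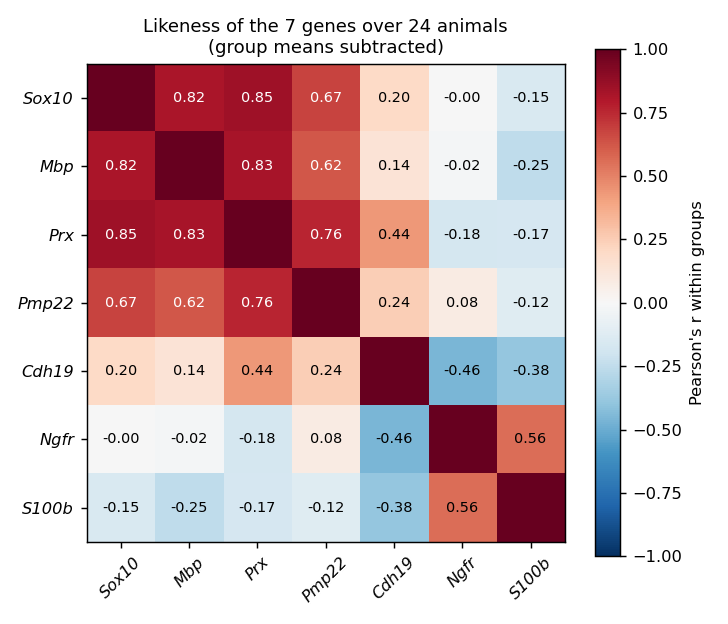
Pearson's r between each pair of members over 24 animals after group means were subtracted (colour and printed value, red positive, blue negative). Sox10, Mbp, Prx and Pmp22 form a block with values from 0.62 to 0.85, and Ngfr and S100b share 0.56.

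By the same measure over 11601 genes, the gene most like Prx was Cldn19 (r 0.89), followed by Nynrin and Ndrg1 (each 0.87). Ndrg1, whose loss causes a demyelinating neuropathy, was also first for Mbp (0.85), followed by Phlda1 (0.85). Sox10 was most like Rtkn (0.93), Gpsm1 (0.92) and Tmem63b (0.91), Pmp22 most like the laminin chain Lamc1 (0.81), Selenon and Adamtsl4, Ngfr most like the laminin chain Lamc3 (0.80), Idua and Uck2, and Cdh19 most like Pde3a (0.94), Larp4 and Ccdc127. The spread within groups had its low end in few animals. p21 male 53 was the lowest of its group for 5 of 7 members, as were SW male 85, DW male 87, p21 female 55 and DW female 83.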

How the data were processed

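Poly(A) RNA of 24 fat depots, 1 library per animal, was sequenced. Per the submitters' processing notes, fastp, HISAT2, featureCounts and DESeq2 1.38.3 were used, with mm10 as the build. Only 2.23% of 16095 deposited gene starts equal those of GENCODE M21 on that build, so none are printed. The strand setting is not given in the sources used here. Per the file headers, the authors deposited 1 signal value per gene and sample, a log2 fold change and a p-value per comparison; the latter columns were not used for results. All values (100%) were whole multiples of the smallest value of their library within 0.01, so whole reads were recovered. Of 16208 rows, 90 repeats were left out.

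The main test was limma 3.58.1 (R 4.3.3, variance trend) on log2(value + 1), a scale that understates changes of low genes. All 24 animals entered 1 fit with 6 group coefficients, over 16005 genes kept by filterByExpr (minimum count 10), giving 9 comparisons of 2 groups and 2 interactions. Calls are Benjamini-Hochberg adjusted p-values under 0.05 over all genes tested. Alternatives were edgeR 4.0.16 and DESeq2 1.42.0 on recovered reads, other scaling, filters and pseudocount 0.1, only the compared groups, tissue scores or the run of animal numbers as covariates, and libraries left out. The set without DW females 82 and 83 and the random block of 5 runs of animal numbers (within-block correlation 0.0836) were chosen after seeing the data. The fit was tested on simulated data. No animal number occurs in more than 1 group, so no pairs could be formed. Litter is not given in the sources used here, shared litters cannot be told from the numbers, and p-values measure the spread between these animals.

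The members, gene lists and rules were chosen with earlier results of these data known. Named are the 7 members, up to 4 called genes per list with the largest change, defining markers that bear on a member, and the 3 genes most like each member among those whose mean log2 level reached 2 or more. Mal, Drp2, Egr2, Pou3f1, Sox2, Gfap, Art3, Gap43, Mag and Pmp2 in the check of the label and Cidea were named after their values were seen. The CCAAT box was added after the SOX and EGR motifs had no match. Some genes of the lists are counted but not reported here by name. Descriptions and age labels of p21 libraries were followed where titles give another age, and 1 animal's number was taken from its description. No pair of libraries of a group agreed within sampling noise (lowest chi-square per degree of freedom 75.9 over 36 pairs). Intervals cover the model's error, and reads may be copies of 1 molecule.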

Additional observations from a re-analysis of the deposited data

Results flagged for a closer look

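Of 42 sets of 4 animals (7 genes in 6 groups), 2 held a value far from the other 3 by Dixon's test at the 95% level, where chance flags about 1 in 20. Prx was 21.1 in SW male 78 against 15.3, 14.5 and 15.1 in the other SW males. Cdh19 was 5.48 in DW female 83 against 4.64, 4.62 and 4.49 in the other DW females.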

How the results depend on the processing

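The S100b falls in males and the Pmp22 fall in SW females kept their calls in all 18 settings tried for each. The number of members called with the compared groups alone in the fit was 1 in SW against p21 males and 0 in DW against p21 females; without p21 male 53, SW male 84 and p21 female 36 it was again 1 and 0; without DW females 82 and 83 it was 0 in the latter. With tissue scores as covariates it was 1 in SW against p21 males and 0 between SW females and males, and with the run of animal numbers as covariate 0 between SW females and males. With these runs as a random block it was 1 in SW against p21 males and 1 in DW against p21 females. Leaving out 1 library each gave 0 to 3 members called in DW against p21 females, 1 to 2 in DW against p21 males, 2 to 4 in SW against p21 females, 1 to 2 in SW against p21 males, 0 to 1 in DW against SW females and 0 to 1 between SW females and males. The cause was not tested.

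Sign changes were as follows, nearly all of differences that did not pass. With tissue scores as covariates, SW against p21 males gave Ngfr 0.20 and Cdh19 -0.0201, SW against p21 females Sox10 -0.27, the sexes at p21 Sox10 -0.13, Mbp -0.0889, Ngfr 0.10, Prx -0.18 and Pmp22 -0.13, the sexes after DW Sox10 -0.96 and S100b -0.23, and the sexes after SW Prx -1.20 and Pmp22 -0.49, the sex by age interaction Sox10 -0.31 and the sex by weaning interaction Cdh19 0.0661; the called Sox10 difference between SW females and males became -0.44. Without p21 male 53, SW male 84 and p21 female 36, SW against p21 males gave Sox10 -0.0584 and Cdh19 -0.17, and the sexes after SW S100b 0.0683. Between the sexes after SW, Pmp22 was -0.00958 by edgeR, -0.0390 with the run as covariate and -0.00179 with it as a random block, and Prx -0.0553 with the run as covariate. Without DW females 82 and 83, Sox10 was 0.41 in DW against p21 females and Mbp 0.0430 between the sexes after DW and 0.0556 in the sex by weaning interaction. Leaving out 1 library gave ranges across 0 for Sox10 (-0.0535 to 0.36) and Cdh19 (-0.15 to 0.39) in SW against p21 males, Ngfr at p21 between the sexes (-0.29 to 0.15), S100b in DW against SW males (-0.0110 to 0.28), Ngfr in DW against p21 females (-0.25 to 0.28) and Prx (-0.0777 to 0.21) and Mbp (-0.0130 to 0.26) in DW against SW females. Between the sexes after SW these ranges were -0.0985 to 0.0768 for Mbp, -0.0716 to 0.177 for Prx, -0.0646 to 0.0639 for Pmp22, -0.162 to 0.00598 for Cdh19 and -0.219 to 0.0683 for S100b, and -0.149 to 0.0184 for Cdh19 in the sex by weaning interaction. In all, 48 of 1359 alternatives for differences that did not pass changed sign and 7 passed, and of 202 for called ones 53 no longer passed and 1 changed sign.

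Over all alternatives, counts of all genes called moved by more than 1.5 times in every comparison. Against p21 they were 432 to 2406 in SW females (1860 as reported), 580 to 2562 in SW males (1901), 495 to 3123 in DW females (1938) and 843 to 3077 in DW males (2395). Between DW and SW they were 1 to 1996 in females (204) and 10 to 114 in males (41). Between the sexes they were 4 to 115 at p21 (57), 10 to 607 under SW (567) and 6 to 1829 under DW (394). The interactions gave 4 to 196 with age (165) and 0 to 8 with weaning (3). By edgeR on recovered reads these were, in the same order, 1472, 1801, 1666, 2283, 71, 29, 15, 422, 382, 4 and 0. The highest counts for DW females came without DW female 76. Depth limits Sox10 and Cdh19 most, at 58 and 99 reads in p21 male 53. No paired analysis was possible because the groups share no replicate numbers.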
